A study of Mus musculus with 60 samples.

Results

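Ppp1r1b, Pde10a, Adora2a, Rgs9, Penk, Scn4b, Rasd2, Adcy5 and Rarb are genes that are strongly expressed in the medium spiny neurons of the striatum, and they were followed here in libraries dissected as prefrontal cortex. They are 9 of the 18088 genes in the table, found by matching Ensembl identifiers to the 9 symbols. The genes were chosen by their values in these same libraries, both the libraries in which they are high and the drug differences. Those values in these comparisons are therefore given as a description, and their adjusted p-values support nothing.

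The libraries came from C57BL/6J mice at postnatal day 25, either Tbr1+/K228E heterozygotes (HT) or wild type (WT). Fluoxetine, a serotonin reuptake inhibitor, lithium or vehicle was given from day 3 to day 24 by way of maternal milk. Each genotype had 3 treatments and both sexes, which made 12 groups of 5 libraries: HT fluoxetine, WT fluoxetine, HT lithium, WT lithium, HT vehicle and WT vehicle, each with 5 females and 5 males. The labels name neither litter nor dam, dissection day or batch, and do not say that each library is a separate animal. Tests therefore see the variation among these libraries and no more, and littermates in a group could make p-values too small. The comparisons ask how the allele alters the cortex and how each drug does so in either genotype.

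Medium spiny neurons are the inhibitory projection neurons of the striatum, a region that lies beneath the frontal cortex. Dopamine and adenosine act on them through receptors that raise or lower cyclic AMP, and the protein encoded by Ppp1r1b carries that signal to protein phosphatases. Neurons of the direct pathway carry the dopamine receptor Drd1 and the peptide gene Tac1, and those of the indirect pathway carry Drd2, Adora2a and Penk. Several of the 9 genes are also expressed in cortical neurons at lower levels, and Penk and Adora2a also have expression outside the striatum. In bulk tissue, more cells of a type and more RNA per cell cannot be told apart.

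Libraries held 23930164 to 36515331 reads, and all values below are reads normalised by the authors to library size. Tbr1, which carries a single-residue change and so gives no check of genotype by its level, spanned 3841 to 5238 in HT fluoxetine and 3191 to 3839 in WT fluoxetine, 2241 to 5241 in HT lithium and 1862 to 3883 in WT lithium, and 1167 to 4980 in HT vehicle and 844 to 3309 in WT vehicle libraries. The cortical label was checked with 10 genes of cortical projection neurons. Slc17a7, the vesicular glutamate transporter of these neurons, stood between 19080 and 60290 in all 60 libraries. Genes of the olfactory bulb, such as Cdhr1 of its mitral cells, were read in the libraries at widely different levels, and the mean log2 value of 7 bulb genes ranged from 3.27 to 11.06 over the 60 libraries.

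Rarb encodes a retinoic acid receptor, a nuclear receptor that regulates genes when bound by retinoic acid and is needed for striatal neurons to mature. Its promoter is shown because it carries a retinoic acid response element of its own, by which the gene answers the ligand of its own protein. Of the promoters of the 9 genes, 7 were found in RefSeq (GRCm38.p6), for 6 genes. The sequence runs 5′ to 3′ over chr14:16575477-16575626 on the minus strand, the 150 bases before the start, and the capitals mark the element at positions -52 to -36.

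Rarb promoter: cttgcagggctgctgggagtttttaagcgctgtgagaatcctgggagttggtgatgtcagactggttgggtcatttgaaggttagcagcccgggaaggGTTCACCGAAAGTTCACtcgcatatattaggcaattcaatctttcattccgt

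The search took the hexamer GTTCAC repeated after any 5 bases, on both strands, in the 250 bases upstream of each start. It matched 2 of 32851 promoters (0.00609%), and among the 7 promoters of the 9 genes it matched that of Rarb. The hexamer searched is the one in the Rarb element shown, so the Rarb match is a description only. Elements with other letters were not counted in that share. The full cyclic AMP response element TGACGTCA was in 0 of the 7 promoters and in 1.55% of all promoters. The CCAAT box was in 3 of 7, those of Pde10a, Rgs9 and Scn4b having it at least once, against 33.9% of all promoters. A match describes these letters only.

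Levels of different genes were compared per kilobase of exon. In WT vehicle libraries the median per kilobase was highest for Penk (1345), followed by Adcy5 (520), Rasd2 (385), Ppp1r1b (347), Pde10a (134), Scn4b (131), Rgs9 (61.7), Adora2a (46.0) and Rarb (39.6). Neighbours in this order had overlapping ranges over the 10 WT vehicle libraries, except that Penk (837 to 2726) lay above Adcy5 (310 to 726) and Ppp1r1b (166 to 510) above Pde10a (74.9 to 145). All 9 genes had at least 10 normalised reads in 60 of 60 libraries and passed the filter on low values.

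The libraries were ordered by the mean log2 value over the 9 genes, whose median was 9.78 over the 60 libraries with a scaled median absolute deviation of 0.165. The 5 highest libraries were WT lithium female 2 (11.59), WT lithium male 2 (11.51), HT lithium female 1 (11.49), HT vehicle male 4 (11.10) and HT vehicle male 5 (10.94). The widest gap in the whole order, 0.53, lay below them, and they are called the 5 high libraries here, a choice made after seeing the data. None was a fluoxetine library or a WT vehicle library. The next were HT vehicle female 5 (10.42) and HT lithium female 3 (10.14), also more than 2 deviations above the median. Below it by as much were HT vehicle female 1 (9.43), WT vehicle male 2 (9.27) and WT vehicle male 4 (9.12). Since the mean of the 9 genes set the choice, how far these genes part the 5 high libraries from the rest is a description only. The share of all genes that part the same 5 was not counted.

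**Figure D1:**
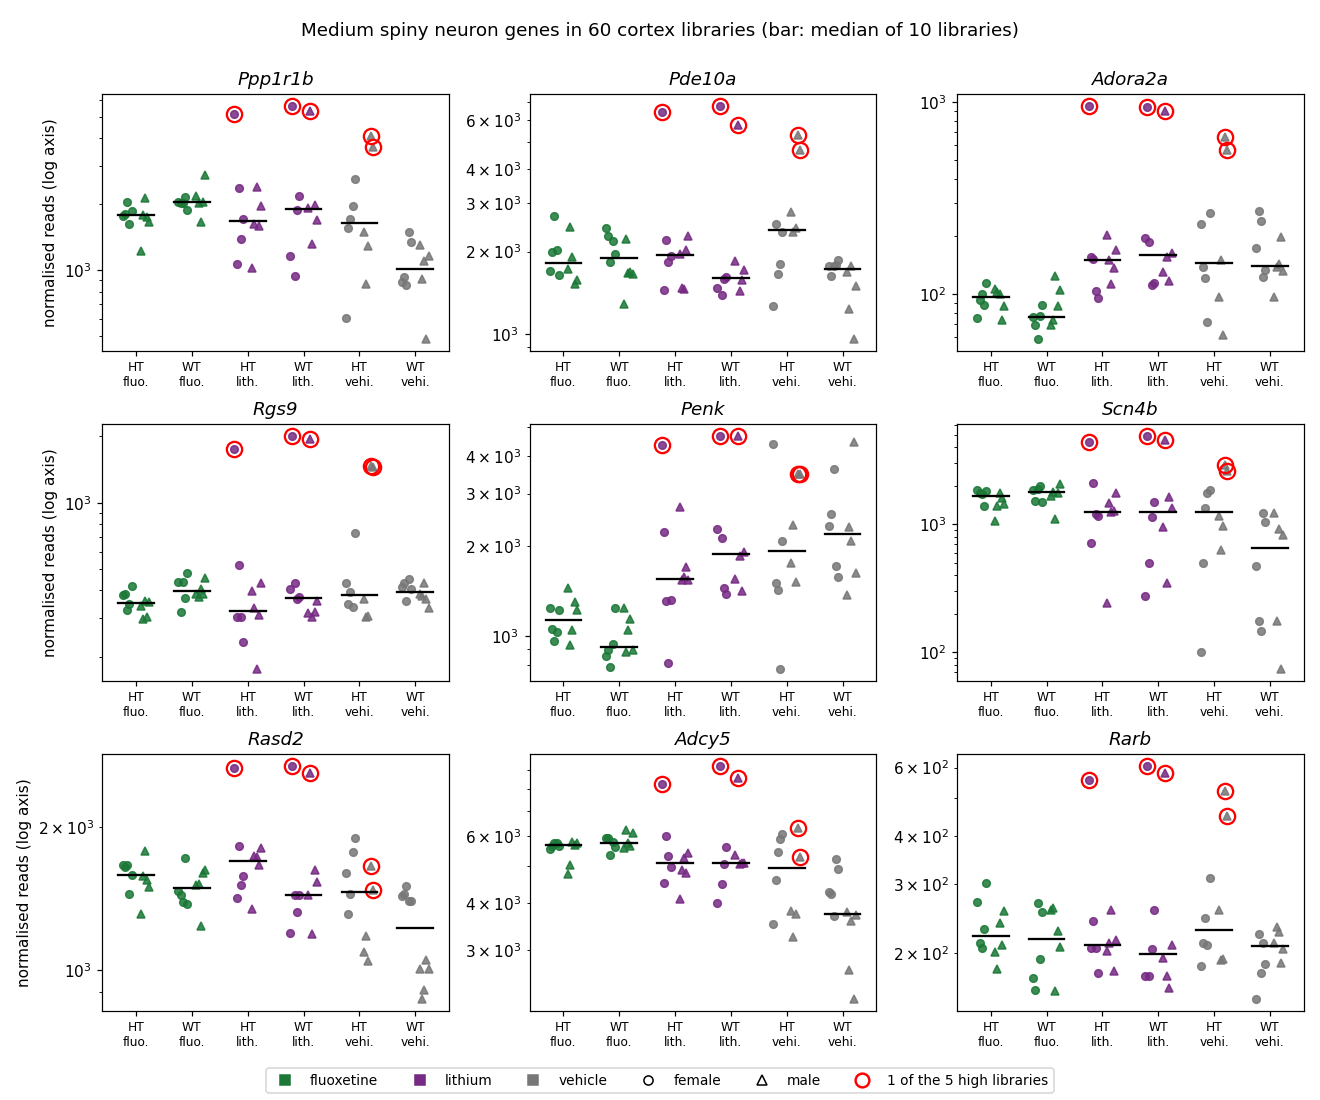
Normalised reads of the 9 genes in 60 libraries (log axis), by genotype and treatment, with females as circles, males as triangles and the median of 10 libraries as a bar. Red rings mark the 5 high libraries, which lie above all other libraries for Ppp1r1b, Pde10a, Adora2a, Rgs9, Scn4b and Rarb. The 5 were picked by the mean of these 9 genes, so this separation is a description only.

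Adora2a, the adenosine receptor of indirect pathway neurons, had 941 normalised reads in WT lithium female 2, 896 in WT lithium male 2, 962 in HT lithium female 1, 659 in HT vehicle male 4 and 565 in HT vehicle male 5, against 58.4 to 270 in the other 55 libraries. These values were 5.86 to 7.49 times the median of the other libraries of the same group. Rgs9, which speeds the switching off of G proteins coupled to dopamine receptors, had 2020, 1954, 1746, 1466 and 1450 in the same 5 libraries in that order, against 176 to 727 in the other 55. Rgs9 was 4.76 to 6.16 times its group's other libraries.

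Ppp1r1b, whose product inhibits protein phosphatase 1 when phosphorylated, had 5643, 5337, 5190, 4097 and 3640 in the 5 high libraries, against 487 to 2709 in the other 55. Pde10a, a phosphodiesterase that breaks down cyclic AMP and cyclic GMP, had 6797, 5770, 6429, 5290 and 4676 in them, against 962 to 2775 elsewhere. For both genes the 5 libraries, picked by a mean that includes these genes, lay above each of the other 55. Adcy5, the main adenylyl cyclase of the striatum, had 9242, 8575, 8259, 6323 and 5295, against 2226 to 6218. Adcy5 exceeded its group's other libraries by 1.42 to 1.94 times, and HT vehicle male 5 fell within the range of the rest.

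Scn4b, a sodium channel subunit that supports fast repeated firing, had 4921, 4544, 4382, 2912 and 2584 in the 5 high libraries, against 74.2 to 2104 in the other 55. Rarb had 607, 581, 557, 523 and 450, against 152 to 312. Neither gene overlapped between the 5 and the rest, which were parted by a mean that includes these genes. Rasd2, a small GTPase of the striatum also called Rhes, had 2690, 2592, 2660, 1652 and 1473, against 871 to 1893, so that the 2 HT vehicle males overlapped the rest. Penk, the precursor of the enkephalins, had 4698, 4677, 4351, 3483 and 3496, and WT vehicle male 4 (4454) and HT vehicle female 1 (4398) reached the same level.

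The size of the excess differed between genes and between the 5 libraries. Over the 9 genes the median ratio to the group's other libraries was 3.71 in WT lithium female 2, 3.16 in WT lithium male 2, 3.34 in HT lithium female 1, 2.72 in HT vehicle male 4 and 2.33 in HT vehicle male 5. The range over the 5 libraries was 2.83 to 3.71 for Ppp1r1b, 1.91 to 4.44 for Pde10a, 1.98 to 3.33 for Penk, 2.67 to 5.99 for Scn4b, 1.35 to 1.95 for Rasd2 and 2.33 to 3.21 for Rarb. Adora2a (6.25) and Rgs9 (5.19) had the highest median ratios over the 5 libraries, and Adcy5 (1.68) the lowest. The sixth library, HT vehicle female 5, was 2.04 times its group's others for Adora2a and 1.96 times for Rgs9.

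Some other genes of medium spiny neurons, which did not enter the choice of the 5 libraries, stood high in the same ones. These genes and their lists were chosen with earlier results of these data known, so their values are a description. Drd1, Tac1, Isl1 and Six3 were picked with their values seen. Drd1 was between 704 and 1049 in the 5 high libraries and at most 419 in the other 55. Drd2 was between 391 and 603, against at most 124 elsewhere. Tac1 was between 950 and 1247, against at most 592. Isl1 and Six3, transcription factors of developing striatal neurons, were between 32.1 and 79.3 and between 142 and 208 in the 5, and had medians of 0 and 0.995 elsewhere, where their highest values were 13.9 and 44.9. Both genes passed the filter on low values only through the 5 high libraries. Of the genes named here outside the 9, HT vehicle female 5 held the highest of the other 55 libraries for Drd1, Drd2, Tac1, Isl1 and Six3.

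Some genes of the same lists did not set the 5 libraries apart. Pdyn, the dynorphin precursor, was 610 to 1201 in them and reached 1197 elsewhere. Chrm4 was 369 to 697 in them and reached 637.5 elsewhere. Ebf1 was 99.8 to 131, within the 68.1 to 201 of the rest, and Slc35d3 was 95.3 to 182, with up to 301 in WT vehicle male 4. Over 15 further genes of medium spiny neurons the mean log2 value was 10.68 to 11.04 in the 5 and 9.11 to 10.31 in the other 55, without overlap. The same mean over 9 direct pathway genes was 8.35 to 8.77, against 6.86 to 8.01, and over 3 indirect pathway genes 8.10 to 8.47, against 5.36 to 7.55. The 15 genes include Six3 and the 9 direct pathway genes include Isl1. Both passed the filter on low values only through the 5 high libraries, so these separations are a description only.

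Markers of other tissue near the prefrontal cortex were read in the same libraries. Of cholinergic interneurons of the striatum, 3 of 5 listed genes were in the table, and their mean log2 value was 5.10 to 6.41 in the 5 high libraries and 1.97 to 5.15 in the other 55. Chat, which makes acetylcholine, was at 0 in 2 of 60 libraries. The 7 bulb genes were at 6.86 to 8.45 in the 5, inside the 3.27 to 11.06 of the rest, and 5 genes of septum and basal forebrain at 7.90 to 8.29, inside 7.55 to 9.22. For 7 choroid plexus genes the range was 4.18 to 5.45, inside 3.33 to 5.63. The 10 genes of cortical projection neurons were at 11.18 to 11.30, inside 9.38 to 11.37, and Slc17a7 was 40300 to 52520 in the 5. The part of any other tissue in the values of the 9 genes was not tested.

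**Figure D2:**
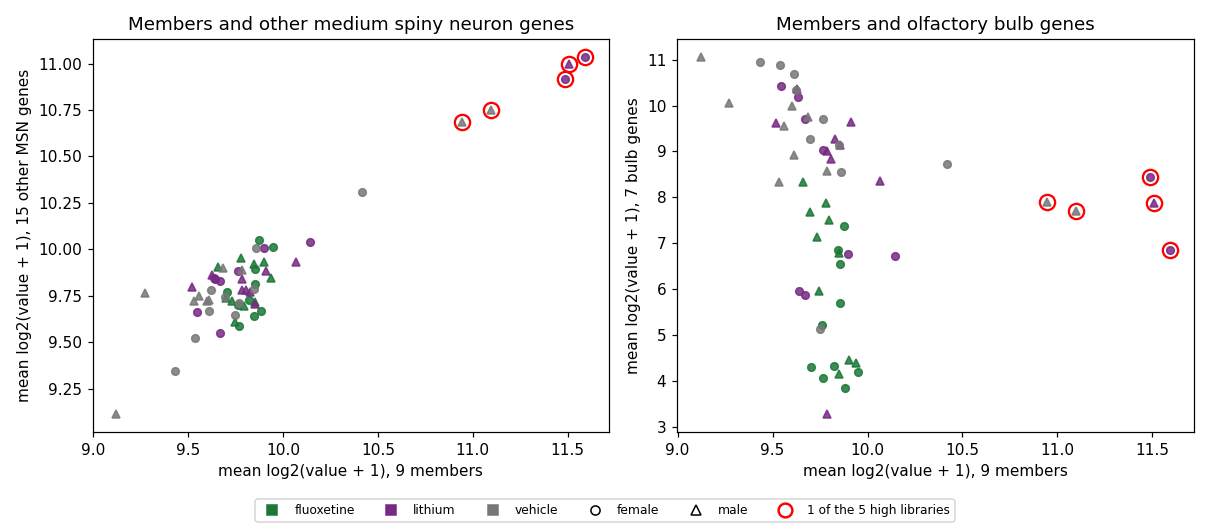
Mean log2(value + 1) of the 9 genes in 60 libraries against the same mean of 15 other medium spiny neuron genes on the left and of 7 olfactory bulb genes on the right. The 5 high libraries, ringed, lie at 10.94 to 11.59 on the horizontal axis and at 10.68 to 11.04 on the left vertical axis, and inside the range of the rest on the right. The 15 genes include Six3, which passed the filter on low values only through the 5 high libraries.

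Across the 60 libraries the mean of the 9 genes correlated with the 15 other medium spiny neuron genes at a Pearson r of 0.94, and in the other 55 libraries at 0.71. With the 9 direct pathway genes r was 0.83 over the 60 and 0.15 over the 55. With the 3 indirect pathway genes it was 0.58 and -0.26. Over the 55, r was 0.65 with the 10 cortical projection neuron genes and 0.73 with 32 relatives of the 9 in the same protein families. These are descriptions, since all genes of a library share that library's depth and dissection, and the values over the 60 rest partly on the 5 high libraries. The 15 genes include Six3, and the direct pathway genes include Isl1. The genes outside the 9 whose deviations from the 12 group means were most like those of the 9, over 60 libraries, were Pde1b (r 0.94), Drd2 (0.92), Cd4 (0.92), Isl1 (0.89), Gpr83 (0.89), Drd1 (0.88), Ecel1 (0.87), Nexn (0.86), Serpina9 (0.85) and Tac1 (0.84). Isl1, at 0 in 35 of the 60 libraries, passed the filter on low values only through the 5 high libraries. Cd4 was 109 to 211 in the 5 high libraries and at most 45.4 in the others, and Serpina9 was 117 to 185 and at most 47.0. Pde1b, a further phosphodiesterase of striatal neurons, was 4086 to 6367 and at most 4252.

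The 9 genes divided into groups once the 5 high libraries were left out. Over all 60 libraries the 36 pairs of genes had r from -0.35 to 0.88 with a median of 0.57, and 33 pairs were above 0. In the other 55 the range was -0.84 to 0.88, the median was 0.10 and 24 pairs were above 0. Ppp1r1b, Scn4b and Adcy5 ran together there (r 0.88 for Ppp1r1b and Scn4b, 0.87 for Ppp1r1b and Adcy5, 0.80 for Scn4b and Adcy5). Penk and Adora2a also ran together (0.81), and opposite to the first 3: Penk had r of -0.80 with Ppp1r1b, -0.84 with Scn4b and -0.77 with Adcy5.

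The same division ran along the bulb genes and the cortical projection neuron genes. In the 55 libraries, r with the mean of the 7 bulb genes was 0.84 for Penk, 0.72 for Adora2a, 0.19 for Rgs9, -0.32 for Rarb, -0.36 for Pde10a, -0.46 for Rasd2, -0.68 for Adcy5, -0.70 for Scn4b and -0.74 for Ppp1r1b. With the mean of the 10 cortical genes it was 0.90 for Scn4b, 0.84 for Ppp1r1b, 0.73 for Adcy5, -0.66 for Adora2a and -0.85 for Penk. Around group means the bulb values were 0.68 for Penk, 0.54 for Adora2a, -0.51 for Scn4b, -0.57 for Adcy5 and -0.65 for Ppp1r1b, so the division was also seen within groups. WT vehicle male 4, at the highest bulb mean (11.06), had the lowest Scn4b (74.2), Ppp1r1b (487) and Adcy5 (2226) of all 60 libraries.

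**Figure D3:**
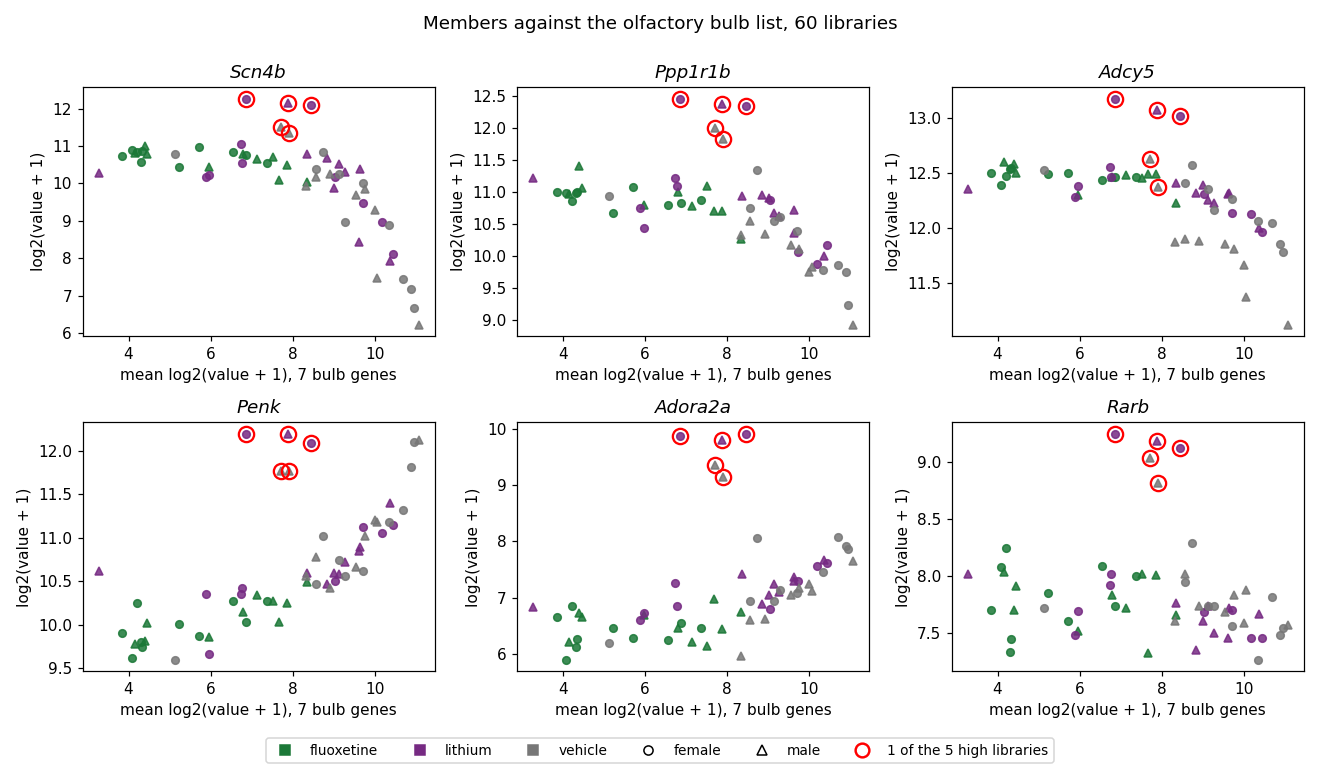
Log2(value + 1) of 6 of the 9 genes against the mean log2(value + 1) of 7 olfactory bulb genes in 60 libraries. Outside the ringed 5 high libraries, Scn4b, Ppp1r1b and Adcy5 are lower and Penk and Adora2a higher where the bulb genes are high, with r from -0.74 to 0.84 over 55 libraries.

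Under fluoxetine in WT mice, where neither group holds a high library, the 9 genes divided in the same way. Ppp1r1b spanned 1662 to 2709 (median 2040) in WT fluoxetine and 487 to 1494 (median 1016) in WT vehicle libraries, without overlap. Scn4b spanned 1100 to 2065 (median 1782) in WT fluoxetine and 74.2 to 1226 (median 651) in WT vehicle libraries, with an overlap. Adcy5 was 5370 to 6218 in WT fluoxetine, all above the 2226 to 5219 of WT vehicle libraries. Penk was 786 to 1236 (median 917) in WT fluoxetine, all below the 1368 to 4454 (median 2198) of WT vehicle libraries. Adora2a was 58.4 to 125 in WT fluoxetine and 96.8 to 270 in WT vehicle libraries, which overlap.

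As differences on the log2(value + 1) scale, fluoxetine minus vehicle in WT was 1.99 ± 0.50 (SE, 10 libraries a group) for Scn4b, 1.04 ± 0.27 for Ppp1r1b, 0.64 ± 0.12 for Adcy5 and 0.33 ± 0.11 for Rasd2. It was -1.17 ± 0.25 for Penk and -0.95 ± 0.36 for Adora2a. Pde10a (0.27 ± 0.23), Rarb (0.08 ± 0.20) and Rgs9 (0.03 ± 0.30) stayed near 0 relative to their errors. The median of the 9 was 0.27, against -0.01 for all genes. At an adjusted p below 0.05 by limma, 4 were called higher and 2 lower, beside 63.2% of all 17781 genes called, and nothing is read from that share. Without the 5 high libraries, which belong to other groups but enter the common error, the differences were the same, Pde10a was called as well, and 63.4% of all genes were called. The bulb genes averaged 5.63 (4.07 to 7.67) in WT fluoxetine and 10.01 (8.92 to 11.06) in WT vehicle libraries, without overlap, and their part in these differences was not tested.

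In HT mice fluoxetine met a vehicle group that holds 2 of the 5 high libraries. Adora2a spanned 73.3 to 114 (median 96.2) in HT fluoxetine and 61.3 to 659 (median 145) in HT vehicle libraries. Penk spanned 931 to 1441 (median 1133) in HT fluoxetine and 774 to 4398 (median 1921) in HT vehicle libraries. Both genes overlapped between the groups. The difference was -0.90 ± 0.36 for Adora2a and -0.84 ± 0.25 for Penk, and these 2 were called lower, with 40.8% of all genes called. The call of Adora2a was lost when any 1 of 12 libraries was left out (HT fluoxetine females 1 to 4 and males 3 to 5, HT vehicle females 1, 2 and 5 and males 4 and 5), and over all 20 such fits the difference ran from -1.11 to -0.69. Without the 5 high libraries, of which HT vehicle males 4 and 5 are in this comparison, Adora2a was at -0.37 ± 0.19 and no longer called, and without all 10 libraries more than 2 deviations from the median it was at -0.13. Penk was then at -0.38 and not called, and the 2 called were Rasd2 (0.28) and Adcy5 (0.35), both higher. Rgs9 was at -0.53 ± 0.30 with all libraries and -0.09 ± 0.13 without the 5.

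Other genes of the 9 had larger differences in HT once those libraries were left out. Adcy5 was at 0.25 ± 0.12 with all 60 and 0.38 ± 0.09 without the 5, Rasd2 at 0.14 ± 0.11 and 0.24 ± 0.07, Ppp1r1b at 0.04 ± 0.27 and 0.38 ± 0.20, and Scn4b at 0.62 ± 0.50 and 0.94 ± 0.49. Penk (-0.66 ± 0.21), Rasd2 and Adcy5 were called without the 5, with 39.4% of all genes called. The median of the 9 was -0.19 with all 60 libraries and 0.05 without the 5. Rarb changed sign, at -0.19 ± 0.20 with all 60 and 0.05 ± 0.11 without the 5. The bulb genes averaged 6.05 (3.85 to 8.34) in HT fluoxetine and 8.51 (5.13 to 10.95) in HT vehicle libraries, and their part was not tested. In HT females alone, without the 5, Rasd2 was at 0.01 ± 0.09 and Adcy5 at 0.18 ± 0.12. For Rasd2 the fluoxetine difference was then called lower in HT females than in HT males, beside 19.6% of all genes called.

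**Figure D4:**
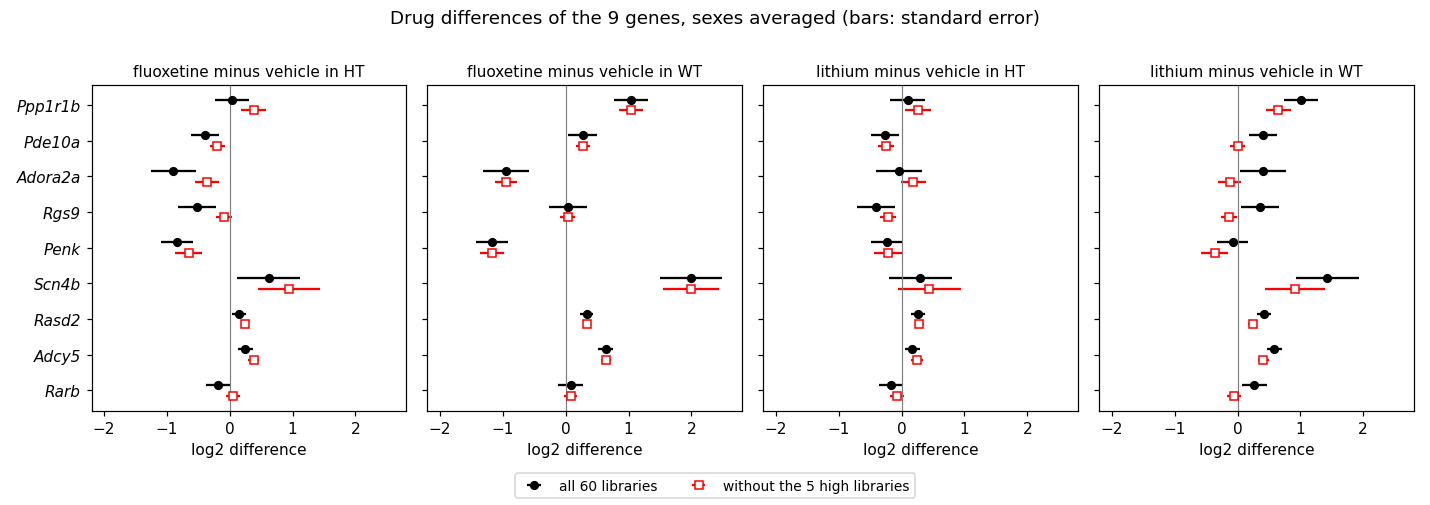
Log2 difference of each of the 9 genes, drug minus vehicle with the sexes averaged, for 4 comparisons, with all 60 libraries as black circles and without the 5 high libraries as red squares (bars, standard error). The values coincide for fluoxetine in WT, and for lithium in WT Adora2a, Rgs9 and Rarb move from above 0 to below 0 without the 5.

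Lithium in WT mice was the comparison whose treated group holds 2 high libraries and whose vehicle group holds none. Ppp1r1b spanned 942 to 5643 (median 1902) in WT lithium and 487 to 1494 (median 1016) in WT vehicle libraries, and 942 to 2190 (median 1789) in WT lithium without the 2 high libraries. The groups overlapped either way. The difference was 1.01 ± 0.27 with all libraries and 0.65 ± 0.20 without the 5, and Ppp1r1b was called in both. Scn4b was at 1.43 ± 0.50 and called with all libraries, and at 0.92 ± 0.48 and not called without the 5, and its call was also lost without WT lithium female 2, WT lithium male 2 or WT vehicle male 4 alone. It was at 0.30 without the 10 libraries more than 2 deviations from the median. Adcy5 (0.58 ± 0.12 and 0.41 ± 0.09) and Rasd2 (0.43 ± 0.11 and 0.24 ± 0.07) were called in both.

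The lithium differences of Adora2a, Rgs9, Rarb and Pde10a in WT were 0.26 to 0.40 with all libraries and -0.14 to 0.00 without the 5. Adora2a was at 0.40 ± 0.36 with all libraries and -0.13 ± 0.19 without the 5, Rgs9 at 0.35 ± 0.30 and -0.14 ± 0.13, and Rarb at 0.26 ± 0.20 and -0.06 ± 0.11. Pde10a was at 0.40 ± 0.23 and 0.00 ± 0.12, and Penk at -0.08 ± 0.25 and -0.37 ± 0.21. In all, 3 of the 9 changed sign and 8 had a smaller difference without the 5. With all libraries 4 were called higher and 0 lower, beside 42.7% of all genes, and without the 5 high libraries 3 higher and 0 lower, beside 34.6%. The median of the 9 was 0.40 and 0.00. The bulb genes averaged 8.83 (6.77 to 10.44) in WT lithium libraries, against 10.01 in WT vehicle libraries, and their part was not tested.

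Lithium in HT mice set a group with 1 high library against a group with 2. With all libraries the differences of the 9 ran from -0.41 (Rgs9, ± 0.30) to 0.30 (Scn4b, ± 0.50), with a median of -0.05. Limma called 0 of the 9, as did edgeR and DESeq2, beside 23.2% of all genes by limma. At an unadjusted p below 0.05 were 1 of the 9 and 6175 of all genes. Without the 5 high libraries the differences of the 9 ran from -0.25 (Pde10a, ± 0.12) to 0.44 (Scn4b, ± 0.50), with a median of 0.19. Rasd2, at 1343 to 1820 in HT lithium and 1044 to 1893 in HT vehicle libraries that remained, was then at 0.28 ± 0.07 and called, beside 18.2% of all genes. Rasd2 was also called without HT lithium female 2, HT lithium male 1 or HT vehicle male 4 alone. Adora2a was at -0.05 ± 0.36 with all libraries and 0.19 ± 0.20 without the 5. In HT females alone, without the 5, Rasd2 was at -0.01 ± 0.095 and Adcy5 at 0.05 ± 0.12.

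The 5 high libraries are unevenly spread over females and males. In HT vehicle both are males, in HT lithium the 1 is a female, and in WT lithium there is 1 of each. Pde10a had medians of 1921 in HT lithium females, 1963 in HT lithium males, 1799 in HT vehicle females and 2775 in HT vehicle males. The lithium difference of Pde10a was 0.34 ± 0.32 in HT females and -0.87 ± 0.32 in HT males, and the difference between the sexes was 1.2 (adjusted p = 0.0411 by limma, with 26.4% of all genes called). Leaving out the 5, it was 0.45 and not called, with 22.6% of all genes called, and the male difference was -0.48 ± 0.18. With all the others kept, the call was also lost when any 1 of 8 libraries was left out, namely HT lithium female 1, HT lithium males 2 and 3, HT vehicle females 1, 3 and 4, and HT vehicle males 4 and 5 (0.84 to 1.38 over the 20 fits). For this sex difference without the 5, Rasd2 was the 1 of the 9 called. Its lithium difference was lower in HT females than in HT males.

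In HT males alone, fluoxetine gave -1.11 ± 0.52 for Adora2a and -0.84 ± 0.43 for Rgs9 with all libraries, and -0.05 ± 0.29 and 0.02 ± 0.19 without the 2 high vehicle males. Called were Pde10a (-0.87 ± 0.32) and Penk (-1.02 ± 0.35) with all libraries, beside 41.4% of all genes, and Pde10a, Rasd2 and Adcy5 without the 5, beside 36.6%. For lithium in HT males, Pde10a was called lower and Rasd2 (0.38 ± 0.15) higher with all libraries, beside 36.9% of all genes, and without the 5 Pde10a was called lower and Rasd2 and Adcy5 higher, beside 30.8%. The Pde10a call of fluoxetine in HT males was lost without HT fluoxetine male 4 or 5 or HT vehicle male 4 or 5, and that of Penk without HT vehicle male 4 or 5. For lithium, the Pde10a call was lost without HT lithium male 2 or 3 or HT vehicle male 4 or 5, and that of Rasd2 without any 1 of HT lithium males 2 to 5 and HT vehicle males 1 to 3. By edgeR and by DESeq2, fluoxetine in HT males gave 4 calls, with Adora2a and Rgs9 added, and lithium gave 2, with Rgs9 in place of Rasd2. The Rasd2 call under lithium was lost with the replicate block. The 3 HT vehicle males that remain without the 5 are few, and all 3 had 2354 or more normalised reads of Pde10a.

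Rasd2 was 1239 to 1627 in WT fluoxetine males, 1395 to 1503 in WT vehicle females and 871 to 1053 in WT vehicle males, the last below all of the first 2 groups. The Rasd2 difference in females was 0.04 ± 0.15 for fluoxetine and 0.11 ± 0.15 for lithium in WT, against 0.33 and 0.43 with the sexes averaged. The drug difference of Rasd2 was lower in WT females than in WT males by 0.59 for fluoxetine (adjusted p = 0.039 by limma, 26.8% of all genes called) and by 0.63 for lithium (adjusted p = 0.0246, 27.8%). The call for fluoxetine was lost in 13 of the 20 fits that leave out 1 library, those without WT fluoxetine females 1, 2, 3 or 5, WT fluoxetine males 1, 2, 4 or 5, WT vehicle females 1, 2 or 3, or WT vehicle males 2 or 3, with differences from -0.65 to -0.55 over the 20. That for lithium was lost in 3, those without WT lithium female 1, WT lithium female 4 or WT lithium male 2 (-0.83 to -0.46). Adcy5 was 3699 to 5219 in WT vehicle females and 2226 to 3774 in WT vehicle males. The 2 ranges overlap.

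In females alone, with 5 libraries a group, the share of all genes called was lower than with the sexes averaged. The counts of the 9 genes below are therefore no result about these genes. In WT males, fluoxetine gave 5 calls of the 9, beside 58% of all genes, and lithium 3, beside 48.2%. Fluoxetine in WT females gave 2.0 ± 0.71 for Scn4b, -1.28 ± 0.35 for Penk and -1.29 ± 0.52 for Adora2a, which were the 3 called, beside 39.8% of all genes. The call of Adora2a was lost without any 1 of WT fluoxetine females 1 to 4 and WT vehicle females 1 to 3, and that of Scn4b without WT vehicle female 2 or 3. WT vehicle female 4 was the library whose absence raised the count, to 5. In HT females fluoxetine gave 1.2 ± 0.71 for Scn4b, -0.66 ± 0.35 for Penk and -0.68 ± 0.52 for Adora2a, values that were 0.69, -0.11 and -0.20 in the same order without the libraries more than 2 deviations from the median. With all libraries 0 of the 9 and 0% of all genes were called by limma, with 0 of the 9 and 4063 of all genes at an unadjusted p below 0.05 and 0 of the 9 by edgeR or DESeq2. Lithium gave 0 calls of the 9 in either genotype, beside 0.0169% of all genes in HT females and 0.00562% in WT females. At an unadjusted p below 0.05 were 0 of the 9 and 1690 of all genes in HT females, and 1 of the 9 and 2012 in WT females. By edgeR and DESeq2, 0 of the 9 were called in both. The median of the 9 for lithium was 0.18 in HT females and 0.29 in WT females with all libraries, and -0.03 and -0.06 without the 5 high ones.

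The genotype comparison under vehicle set 2 high libraries in HT against none in WT. Ppp1r1b spanned 606 to 4097 (median 1643) in HT vehicle and 487 to 1494 (median 1016) in WT vehicle libraries. HT minus WT was 0.76 ± 0.27 for Ppp1r1b, 0.66 ± 0.23 for Pde10a, 1.26 ± 0.50 for Scn4b, 0.37 ± 0.20 for Rarb, 0.36 ± 0.30 for Rgs9, 0.33 ± 0.12 for Adcy5, 0.27 ± 0.11 for Rasd2, 0.14 ± 0.36 for Adora2a and -0.13 ± 0.25 for Penk. None of the 9 was called by limma, beside 0.0337% of all genes, although 5 of the 9 and 5912 of all genes had an unadjusted p below 0.05. DESeq2 called 3 of the 9, beside 14.1% of the genes to which it gave an adjusted p, and edgeR 0. The bulb genes averaged 8.51 (5.13 to 10.95) in HT vehicle and 10.01 (8.92 to 11.06) in WT vehicle libraries, and the cortical projection neuron genes 11.04 (9.95 to 11.37) in HT vehicle and 10.67 (9.38 to 11.15) in WT vehicle libraries. Their part in these differences was not tested.

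Without the 5 high libraries the HT minus WT difference under vehicle was 0.47 ± 0.12 for Pde10a, 0.42 ± 0.20 for Ppp1r1b, -0.39 ± 0.19 for Adora2a and -0.08 ± 0.13 for Rgs9, and 7 of the 9 were smaller in size. Adora2a and Rgs9 changed sign, and the median was 0.17, against 0.36 with all libraries. None was called by limma then either, beside 0.00564% of all genes. At an unadjusted p below 0.05 were 4 of the 9 and 3767 of 17740 genes. With all 5 kept, leaving out 1 library in turn gave 4 of the 9 called without HT vehicle female 1 (beside 35.3% of all genes), 3 without HT vehicle male 2 (17.1%), 4 without WT vehicle female 4 (17.6%) and 4 without WT vehicle male 1 (20.8%). HT vehicle female 1 had 100 reads of Scn4b, against a median of 1336 for its group.

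Under fluoxetine, HT minus WT ranged from -0.24 to 0.21 over the 9 genes with a median of 0.00. Limma called 0 of the 9, as did edgeR and DESeq2, beside 0.0112% of all genes by limma. At an unadjusted p below 0.05 were 0 of the 9 and 524 of all genes. Under lithium the median was -0.08 with all libraries and 0.03 without the 5. Limma called 0 of the 9 in both, beside 0.00562% of all genes with all libraries and 0% without the 5. At an unadjusted p below 0.05 were 0 of the 9 and 1489 of all genes with all libraries. Without the 5 these were 1 of the 9 and 2087 of all genes. By edgeR or DESeq2, 0 of the 9 were called with all libraries. The interaction of genotype with fluoxetine had 0 of the 9 called, as had that with lithium, and 0% of all genes were called in both (3 of the 9 at an unadjusted p below 0.05 in each, 0 by edgeR or DESeq2). Their medians over the 9 were -0.39 and -0.45 with all libraries and -0.12 and -0.08 without the 5. Unadjusted p-values fell below 0.05 for 2628 genes in the first and 711 in the second with all libraries.

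Among 15 further medium spiny neuron genes, fluoxetine in WT gave 8 higher and 3 lower with a median of 0.34 (63.2% of all genes called), and in HT 1 higher and 2 lower with a median of -0.08 (40.8% of all genes). Without the 5 high libraries, 14 of these genes were tested and fluoxetine in HT gave 4 higher and 2 lower, with a median of 0.19 (39.4% of all genes). Lithium in WT gave 8 higher and 1 lower with a median of 0.31 (42.7% of all genes), and 3 higher and 1 lower of 14 with a median of 0.18 without the 5 (34.6% of all genes). Ptpn5, the striatal-enriched tyrosine phosphatase, rose by 0.66 under fluoxetine and by 0.48 under lithium in WT. Gnal, the G protein that couples striatal receptors to adenylyl cyclase, rose by 0.61 under fluoxetine and by 0.41 under lithium in WT, and its lithium call was lost without the 5 (0.27).

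Other genes of these lists were lower under fluoxetine. Meis2, a transcription factor of striatal neurons and of bulb interneurons, fell by 1.17 under fluoxetine in WT and by 0.62 in HT. Sp9, of the indirect pathway list, fell by 2.44 in WT and by 1.4 in HT, and Syndig1l by 2.20 in WT and by 1.53 in HT. Slc35d3, of the direct pathway list, fell by 2.61 in WT and by 1.58 in HT. Of the 7 bulb genes, all 7 were lower under fluoxetine in either genotype, with medians of -2.42 in HT and -4.43 in WT.

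Of the dopamine receptors, Drd1 rose by 1.06 under fluoxetine in WT, and by 1.01 under lithium in WT, where the value without the 5 high libraries was 0.47 and not called. Drd2 fell by 1.37 under fluoxetine in HT with all libraries and by 0.68 without the 5. Under lithium in WT, Drd2 was at 0.67 with all libraries and -0.05 without the 5, and called in neither. Pdyn rose by 0.79 under fluoxetine and 0.76 under lithium in WT, and by 0.64 under lithium without the 5.

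Among 18 genes of DARPP-32 and cyclic AMP signalling, the pathway in which the Ppp1r1b protein acts, fluoxetine gave 5 higher and 6 lower in HT (median 0.02) and 11 higher and 6 lower in WT (median 0.18), beside 40.8% of all genes called in HT and 63.2% in WT. Lithium gave 1 higher and 4 lower in HT (median -0.02) and 5 higher and 5 lower in WT (median 0.08), beside 23.2% of all genes in HT and 42.7% in WT. Creb1, the cyclic AMP responsive transcription factor, fell in all 4 comparisons, by 0.27 in HT and 0.29 in WT under fluoxetine, and by 0.18 in HT and 0.23 in WT under lithium. Cdk5, a kinase that phosphorylates the Ppp1r1b protein, rose by 0.19 in HT and 0.34 in WT under fluoxetine, and by 0.19 in HT and 0.24 in WT under lithium. The mean log2 value of the 18 genes was 12.60 to 12.79 in the 5 high libraries, inside the 12.39 to 12.79 of the others.

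For 32 relatives of the 9 genes in the same protein families, the mean log2 value was 10.25 to 10.47 in the 5 high libraries and 9.78 to 10.46 in the other 55, which overlap. Under fluoxetine 11 were higher and 2 lower in HT (median 0.18) and 19 higher and 5 lower in WT (median 0.32), beside the same 40.8% and 63.2% of all genes. Under lithium 6 were higher and 0 lower in HT (median 0.09) and 17 higher and 3 lower in WT (median 0.21), beside 23.2% of all genes in HT and 42.7% in WT. Without the 5 the WT counts were 9 and 2, beside 34.6%. Adcy1, an adenylyl cyclase of cortical neurons, rose by 0.69 under fluoxetine in WT, and Pde1c fell by 1.54.

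The 9 genes lie on 9 chromosomal positions of GRCm38 with no shared locus. Ppp1r1b (chromosome 11, 98348404 to 98357796) and Rgs9 (chromosome 11, 109225355 to 109298129) share a chromosome, and Pde10a is on 17, Adora2a on 10, Penk on 4, Scn4b on 9, Rasd2 on 8, Adcy5 on 16 and Rarb on 14. The annotation has a gene on the opposite strand overlapping Ppp1r1b, Pde10a, Penk, Adcy5 and Rarb, and Gm49702 on the same strand overlapping Adcy5. The kit marks strand, but whether counting used it is not given in the sources used here, so those 5 values could hold reads of the overlapping genes. Strand would not part Adcy5 from Gm49702. Adora2a, Rgs9, Scn4b and Rasd2 overlap no annotated gene.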

How the data were processed

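RNA-seq of mouse prefrontal cortex gave 1 value per gene and library. The deposited signal is gene-level reads divided by a size factor by the authors; the submitters' processing notes list Salmon 0.11.2, R 3.6.0, DESeq2 1.19.11 and the build GRCm38 but no roles. All values were whole multiples of a step fixed for each library (100% at a tolerance of 1e-06; 6 columns have a step within 1.2% of 1), which gave the read totals. The main test was limma 3.58.1 (R 4.3.3) on log2(value + 1), fitted with a trend of variance on level and a mean for each of the 12 groups. Genes at 10 or more in 5 or more libraries (17781) were kept, and p-values were adjusted by Benjamini-Hochberg over all of them, with 0.05 as the threshold. Tests are two-sided, and log differences understate changes of low genes. Duplicate libraries were looked for (chi-square per degree of freedom at least 2.99 in 120 pairs) and none was taken as one. Symbols matched 18077 of 18088 identifiers.

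The 9 genes and the lists were chosen with earlier results of these data known. Named genes are the 9, Tbr1, the 10 most alike, and, of each list, the 3 with the highest mean and the 3 with the smallest p in a drug comparison; Drd1, Six3, Tac1 and Isl1 are shown as defining markers, chosen with values seen. A result on a withheld item is not reported here. Alternatives were a pseudocount of 5, no filter, quantile normalization, a replicate block, library quality weights, edgeR 4.0.16, DESeq2 1.42.0, leaving out each library, and leaving out the libraries that stand out; leaving out the 5 high libraries was chosen after seeing the data. The test was checked on simulated reads drawn independently for each gene and library. They held no effect shared by the genes of a library or by a litter, so the check does not cover those.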

Additional observations from a re-analysis of the deposited data

Results flagged for a closer look

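Of 120 checks for a single library lying far from the other 4 of its group, 22 passed the threshold. Chance passes about 1 in 20 independent checks, but these share libraries, the mean holds its own genes, and the genes were chosen by these values, so the number is a description only. Of these 22, 16 fall in 3 of the 5 high libraries. In WT lithium female 2 they were Pde10a (6797 normalised reads), Adora2a (941), Rgs9 (2020), Rasd2 (2690) and the mean log2 value of the 9 genes (11.59). In WT lithium male 2 they were Pde10a (5770), Adora2a (896), Rgs9 (1954), Penk (4677), Adcy5 (8575), Rarb (581) and the mean (11.51). In HT lithium female 1 they were Pde10a (6429), Adora2a (962), Rarb (557) and the mean (11.49). The HT vehicle males 4 and 5 cannot be picked out in this way, since they lie in the same group.

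The other 6 were Penk (2713, highest), Scn4b (244, lowest) and Rasd2 (1343, lowest) in HT lithium male 1, Scn4b (1385, lowest) in HT fluoxetine female 4, Rasd2 (1720, highest) in WT fluoxetine female 4 and Rasd2 (1239, lowest) in WT fluoxetine male 3.

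A drug difference differed between the sexes, by limma's interaction term, for Rasd2 under fluoxetine in WT (-0.59, females minus males, adjusted p = 0.039), for Rasd2 under lithium in WT (-0.63, adjusted p = 0.0246) and for Pde10a under lithium in HT (1.2, adjusted p = 0.0411). Each of these comparisons had 1 of the 9 called, beside 26.8%, 27.8% and 26.4% of all genes in that order. Nothing is read from these counts. The Pde10a value was 0.45 and not called without the 5 high libraries, where Rasd2 was called in its place with a negative value. Leaving out single libraries ended the first call in 13 of 20 fits, the Rasd2 call under lithium in 3 and the Pde10a call in 8.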

How the results depend on the processing

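Depth does not limit the 9 genes, each above 10 normalised reads in 60 of 60 libraries. The limits are the 5 high libraries, the spread of bulb genes and unknown litters. The numbers of the 9 genes called were within 1.5 times of those reported, and the medians moved by less than the spread between libraries, in the 18 comparisons and all settings but those given below. That spread takes in the 5 high libraries, so it is wide for the groups that hold them. A median counted as unmoved can therefore still vanish without the 5, as for lithium in WT (0.40 with all libraries and 0.00 without the 5). For HT against WT under vehicle, library quality weights gave 6 called, DESeq2 gave 3, and leaving out single libraries gave 0 to 4. Over all genes this comparison had 6 calls, 12 with quantile normalization, 6987 with weights, 1583 with DESeq2 and 1 without the 5 high libraries. For fluoxetine in HT, quantile normalization gave 1 and weights gave 4, and leaving out single libraries 1 to 2. For lithium in HT, weights, leaving out the libraries that stand out and leaving out the 5 high libraries gave 1 each, and single libraries 0 to 1. For fluoxetine in WT females, weights, leaving out the libraries that stand out and leaving out the 5 high libraries gave 5 each, edgeR gave 1 and single libraries 1 to 5, and the median was 0.228 with quantile normalization. For lithium in WT females weights gave 2, beside 18.5% of all genes called. For fluoxetine in HT males, weights, leaving out the libraries that stand out, edgeR and DESeq2 gave 4 each and single libraries 0 to 4. For lithium in HT males, no filter and the replicate block gave 1 each, leaving out the libraries that stand out gave 4 and single libraries 0 to 2, and the median was 0.166 without those that stand out and without the 5. For genotype by fluoxetine, weights gave 4, beside 5139 of all genes, and the median was -0.044 without the libraries that stand out. For fluoxetine by sex in WT, quantile normalization and leaving out the 5 gave 2 each, and single libraries 0 to 1. For lithium by sex in HT, leaving out the libraries that stand out, edgeR and DESeq2 gave 2 each, single libraries 0 to 1, and the median was -0.333 without those that stand out and -0.364 without the 5. For lithium by sex in WT, quantile normalization and leaving out those that stand out or the 5 gave 2 each, and single libraries 0 to 2. Called with the opposite sign, without the libraries that stand out, were Adora2a for lithium in HT males (0.645) and Adcy5 for lithium by sex in HT (-0.541), neither called with all libraries. An equal count need not mean the same genes: for fluoxetine in HT without the libraries that stand out, Rasd2 and Adcy5 were called in place of Adora2a and Penk. For lithium by sex in HT without the 5 high libraries, Rasd2 (lower) was called in place of Pde10a (higher). The cause of these changes was not tested.

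With a replicate block the numbers of the 9 genes called were 2 for fluoxetine in HT, 6 for fluoxetine in WT, 4 for lithium in WT and 3 for fluoxetine in WT females, 1 for lithium in HT males (2 without the block), 2 for fluoxetine in HT males, 1 for each of the 3 sex interactions and 0 in the other 9 comparisons, so it changed 1 of the 18 counts. Replicate numbers do not pair libraries: over 330 same-numbered pairs, the correlation of deviations from group means ran from -0.565 to 0.616 with a median of 0.005, and 16 of 60 libraries were closest to their own number.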
